A study of Mus musculus with 3 samples.

Results

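Serum depletion was compared with control culture in mouse biliary epithelial cells (BECs) as the ratio of the serum depletion level to the control level, probe by probe, on one-colour microarrays with 1 array per condition. Of 23473 gene probes in the deposited table, 19809 held a value on both arrays and were compared, 406 held one on the serum depletion array alone, 1138 on the control array alone and 2120 on neither. A level is the background-subtracted intensity of a probe after each array was scaled to a median of 25, and the words rose and fell are kept for changes of more than 2-fold. With 1 array on each side there is no replicate check, no p-value and no SD for any gene, and so few arrays limit the precision. Where values stand in parentheses after a gene they are its control level, its serum depletion level and the fold between them.

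The cells of both groups were intrahepatic BECs isolated from female BALB/c mice aged 8 weeks and kept in culture. Control cells grew in DMEM/F-12 medium with 10% Nu-serum, epidermal growth factor, insulin, forskolin and antibiotics, and the serum depletion group in medium depleted of serum, to an extent not given in the sources used here. The labels and the methods give 4 to 7 days of treatment and the results 7 days. RNA of 2 independent experiments was pooled for each array, so the spread between cultures is not seen. The other array of the series held BECs treated with the bile acid glycochenodeoxycholic acid (GCDC), and its levels are used only beside a few genes.

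BECs, or cholangiocytes, line the bile ducts and modify bile by secreting and absorbing water and ions. Serum supplies growth factors, hormones, lipids and iron, and cells deprived of it leave the cell cycle, either reversibly (quiescence) or permanently (senescence). Senescent cells keep an active metabolism, raise inhibitors of cyclin-dependent kinases, lower lamin B1 and secrete cytokines, chemokines and proteases. In whole cultures, a lower level can come from fewer cells of a type or from less RNA per cell, and these cannot be told apart here.

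Marker genes of cholangiocytes were measured on both arrays, the keratins among the brightest. The keratin gene *Krt7* was at 14723 and 19912, *Krt19* at 13440.0 and 11882 and the adhesion gene *Epcam* at 1760.2 and 2607, each as control and then serum depletion. The secretin receptor gene *Sctr* was at 37.4 and 64.1, the chloride channel gene *Cftr* at 25.6 and 23.8 and the transcription factor gene *Sox9* at 16.7 and 20.6, and none of these 6 passed 2-fold. Over the whole cholangiocyte list 3 of 28 compared genes rose and 4 fell, and their levels summed to 94922 and 102801. The stem cell marker *Prom1* went from 671 to 129.6 (5.18-fold lower), the epithelial regulator *Grhl2* from 41.8 to 8.9 (4.70-fold lower) and the water channel *Aqp1* from 776 to 229 (3.39-fold lower), and *Elf3*, an epithelial transcription factor, from 235 to 102 (2.29-fold lower), all of which fell. The transcription factors *Onecut2* (141 to 491, 3.49-fold) and *Foxa3* (13.3 to 32.8, 2.47-fold) and the membrane protein gene *Tm4sf4* (907 to 1828, 2.02-fold) rose.

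Markers of other liver cells had lower summed levels than those of cholangiocytes on both arrays. Hepatocyte markers summed to 589.6 on the control array and 785 on the serum depletion array over 20 compared genes. The albumin gene *Alb* was at 3.66 and 2.3 and the urea cycle gene *Cps1* at 7.82 and 7.8, but *Ttr*, which encodes the thyroxine carrier transthyretin, rose from 36.9 to 288 (7.82-fold higher). Of this list 4 rose and 1, the arginase gene *Arg1* (207 to 72.8, 2.84-fold), fell. These counts were 1 and 1 at 25 or more on both arrays, 3 and 3 with no scaling and 1 and 1 after normexp correction. Macrophage markers summed to 1663 and 2530.5 over 16 genes, 0 of them past 2-fold, with *Cd68* at 42.5 and 43.8, *Csf1r* at 42.1 and 45.1 and *Adgre1* empty on both arrays. The median levels of that list were 6.99 and 7.6, so its sums lay mostly in brighter members other than *Cd68* and *Csf1r*. Mesenchymal markers summed to 162 and 209 over 15 genes, of which 2 rose, 0 fell and 13 had a ratio above 0, and 2 more were filled on the serum depletion array alone at 2-fold or more. Those that rose were *Col1a2* and *Pdgfra* (2.31 to 5.1, 2.20-fold), with the collagen gene *Col1a1* at 6.55 and 12 and the receptor gene *Pdgfrb* at 23.3 and 23.5. Lymphocyte markers summed to 134.5 and 106 over 12 genes, of which 3 rose and 1 fell. The B cell genes *Cd79a* (5.87 to 15.9, 2.71-fold) and *Ms4a1* (1.60 to 7.0, 4.38-fold) and the natural killer receptor gene *Ncr1* (2.01 to 4.9, 2.44-fold) rose and the granzyme gene *Gzmb* fell from 69.9 to 19.9 (3.51-fold lower). Endothelial markers summed to 275 and 226 over 13 genes, of which 2 rose and 2 fell. The part of such cells in the changes below was not tested.

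Of the compared probes, 2674 rose and 2190 fell, which is 13.5% and 11.1% of them, and 388 rose and 636 fell more than 4-fold. Counted once per gene, by its brightest probe, 2313 of 16570 genes rose (14.0%) and 1812 fell (10.9%), and the shares and counts of the gene lists below are read against these. The median log2 ratio was 0.16 over probes and 0.17 over genes, and the middle 80% of the probes lay between -1.08 and 1.18 on the log2 scale. Close to the threshold, *Prr18* rose from 568 to 1136, just over 2-fold, and *Crem*, from 2.6 to 5.2, was at it. On the falling side *Ptprf*, from 166 to 83.0, was just past the threshold and *Tacr2*, from 5.4 to 2.7, was at it.

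The balance of rises and falls depended on the scaling between the arrays. Rises made up 55.0% of the changed probes with each array scaled to the same median, 66.5% with the median taken over probes filled on both arrays, 44.6% at equal 75th percentiles, 45.0% after quantile normalization, 39.4% after cyclic loess, 41.8% after normexp correction with quantile normalization, and 23% with no scaling. The median log2 ratio moved with it, from -0.28 with no scaling to 0.32 with the median over probes filled on both arrays. The medians of several lists are given below to be read against that of all genes.

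**Figure D1:**
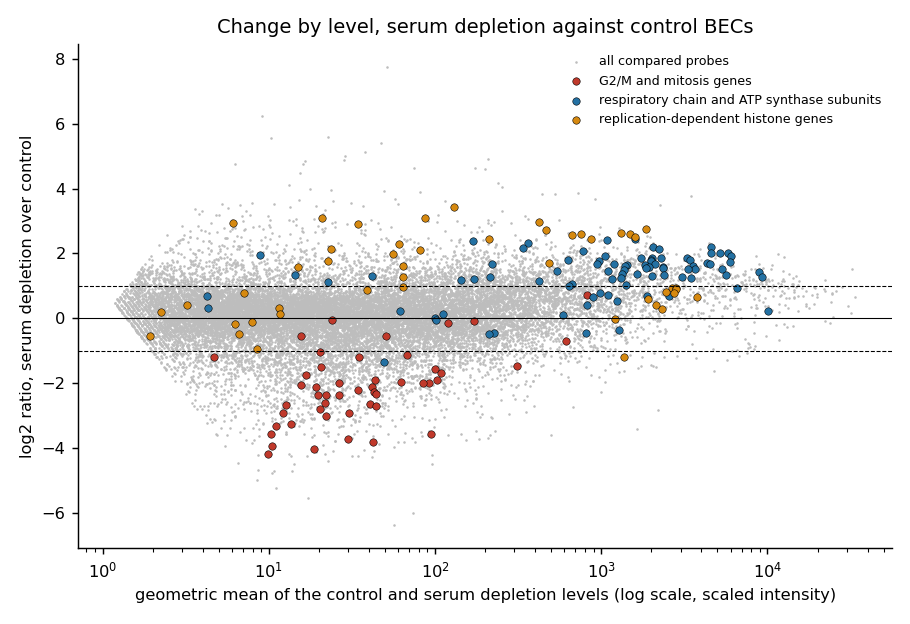
Log2 ratio of serum depletion over control (vertical axis) against the geometric mean of both levels (horizontal log axis, scaled intensity) for each compared probe, in grey, with members of 3 gene lists in colour and dashed lines at 2-fold. Mitotic genes lie mostly below the lower line at low and middle levels, and respiratory chain genes lie mostly above the upper line at high levels.

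Changes were not spread evenly over levels or gene lengths. With the probes cut into 5 equal classes of mean level, 29.1% rose and 5.83% fell in the brightest class, against 8.15% and 17.9% in the middle one and 9.59% and 5.33% in the dimmest. By the length of the gene on the genome, 20.7% of probes rose and 4.82% fell in the shortest of 5 classes, up to 5423 bp, and 8.96% rose and 16.6% fell in the longest, from 65304 bp. Among the 9331 probes at a level of 25 or more on both arrays, 1625 rose (17.4%) and 748 fell (8.02%), and there 31.5% of the shortest and 10.3% of the longest class rose. Many lists described below hold genes of similar length and level, so the median gene length is given beside several that moved, and its part in the change was not tested beyond the alternative with the median of each length class subtracted.

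**Figure D2:**
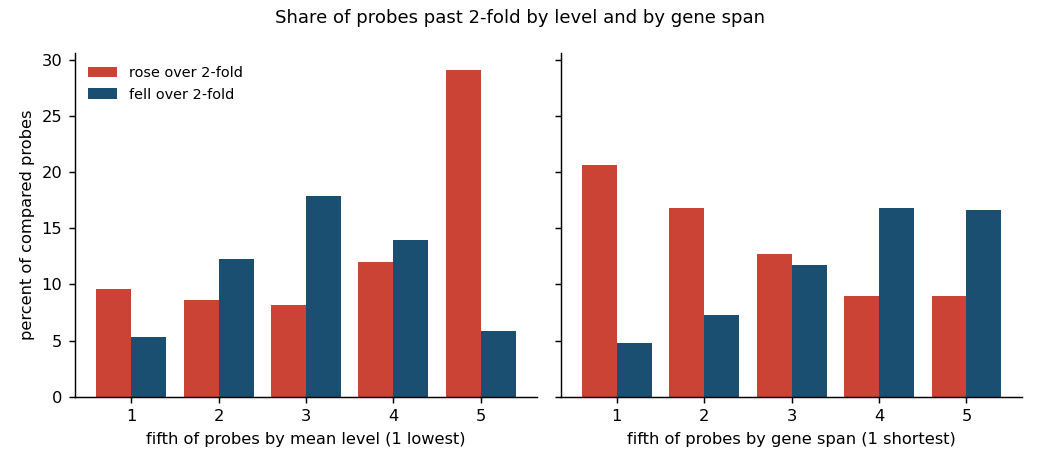
Percent of compared probes that rose (red) or fell (blue) more than 2-fold, in 5 classes of mean level (left) and of gene length on the genome (right). Rises were most frequent in the brightest class, 29.1%, and in the shortest genes, 20.7%.

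Probes of the same gene give a measure of how far a single ratio can be read. For 935 genes with 2 compared probes the log2 ratios differed by a median of 0.67, the SD of the difference was 1.20 and the correlation across these genes was 0.29, a description in which both probes share the arrays. A probe rose for 156 of these genes and both probes for 33, and a probe fell for 247 and both for 44. In 15 genes 1 probe rose and the other fell. Below, a gene with 2 or 3 probes is given by its brightest unless said otherwise. Among genes so named, the other probe had the opposite sign without passing 2-fold for *Abcc4*, *Arhgef17*, *Hnrnpm*, *Lgr5*, *Rfx5* and *Slc9a3*, with log2 ratios of 0.96, -0.16, 0.68, -0.15, 0.98 and -0.89. For *Ccl25*, *Chd3*, *Eef1d*, *Mrpl47*, *Psmd3*, *Skil*, *Srsf1* and *Usp24* the other probes had the same sign and did not pass 2-fold. With both levels at 25 or more the correlation was 0.41 over 223 genes. The 24 repeated spots of each of 2 kinds of positive control had coefficients of variation of 10.3% to 14.4% on these arrays. Their log2 ratios had SDs of 0.19 and 0.17. These spots were bright, with median signals of 5084 to 24739 above the blanks. Filled gene probes had medians of 40.6 in control and 29.8 after serum depletion, so the spots do not describe the precision of a typical probe.

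**Figure D3:**
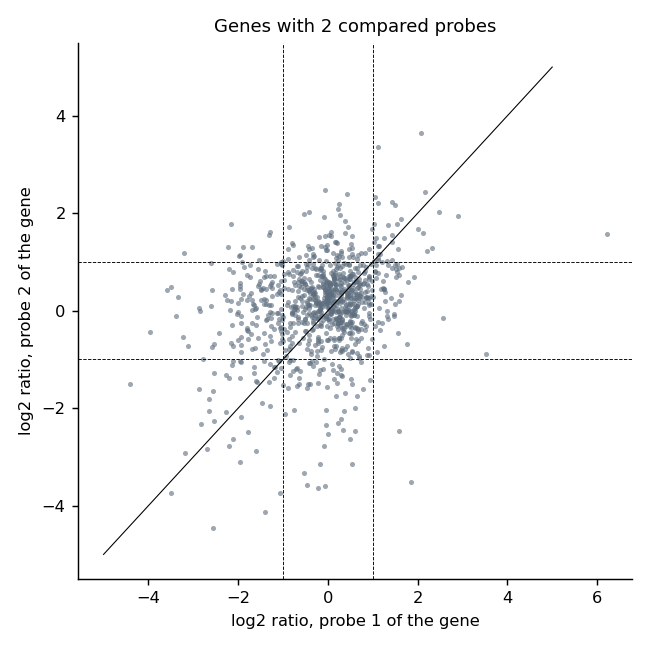
Log2 ratio of serum depletion over control for probe 1 (horizontal) and probe 2 (vertical) of the 935 genes with 2 compared probes; the solid line marks equal ratios and dashed lines 2-fold. The points scatter widely around the line, with a median absolute difference of 0.67.

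The largest rise among probes with a gene symbol was that of *Reg1*, a secreted C-type lectin of the regenerating protein family, from 3.51 to 756 (216-fold higher). *Tns1*, which encodes the focal adhesion protein tensin, came next by 1 probe, from 1.06 to 79.1 (74.9-fold higher). The control signal of that probe lay 2.11 SD of the blank spots above their mean, close to the limit of 2 SD, and the brighter probe of *Tns1* rose from 53.8 to 160.3 (2.98-fold higher). *Itpka*, an inositol trisphosphate kinase that bundles actin, rose from 3.27 to 157 (48.1-fold higher), and *Ifit3*, an antiviral gene induced by interferon, rose from 7.21 to 306 (42.5-fold higher). The major urinary protein genes *Mup2* (1.49 to 70.8, 47.7-fold) and *Mup19* (6.45 to 225, 35.0-fold) rose and belong to a family of near-identical copies that a probe may not separate. *Sp5*, a transcription factor gene induced by Wnt signals, rose from 5.08 to 164 (32.2-fold higher). The collagen and elastin degrading enzymes *Mmp12* (5.24 to 153, 29.2-fold) and *Mmp13* (3.10 to 84.3, 27.2-fold), the dystrobrevin gene *Dtna* (3.07 to 88.6, 28.9-fold) and the gut peptide gene *Pyy* (1.20 to 32.5, 27.1-fold) were also among the 15 highest. The control signals of *Pyy* and *Mup2* lay 2.40 and 2.97 SD above the mean of the blanks, and on that array 22.5% of the spots without a probe were above 2 SD, so the size of these rises and of that of *Tns1* is uncertain. *Tceal8* (34.8 to 861, 24.8-fold), the phosphoinositide 3-kinase subunit gene *Pik3r6* (40.6 to 986, 24.3-fold), *1700003F12Rik* (38.1 to 1151, 30.2-fold) and the monocyte chemokine *Ccl2* (14.9 to 369, 24.7-fold) complete them. The only other urinary protein gene compared, *Mup5*, rose from 12.8 to 27.8 (2.17-fold higher). The study selected *Ifit3*, *Ccl2*, *Dtna*, *Tceal8*, *Pik3r6*, *Itpka*, *Pyy* and *Sp5* from these same arrays, so their rank here is not independent evidence.

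The 15 largest falls ended at serum depletion levels of 1.4 to 22, most of them under 5, where a ratio is less precise. *Adam8*, a membrane protease, fell from 68.2 to 1.8 (37.9-fold lower), *Tbc1d9*, a predicted regulator of Rab GTPases, from 47.8 to 1.5 (31.9-fold lower), and *Met*, the receptor for hepatocyte growth factor, from 70.2 to 2.7 (26.0-fold lower). *Larp4*, an RNA-binding protein of translated mRNA, fell from 54.6 to 2.1 (26.0-fold lower), the splicing helicase gene *Dhx38* from 43.2 to 1.7 (25.4-fold lower), and *Usp22*, the ubiquitin protease of the SAGA coactivator, from 67.6 to 3.0 (22.5-fold lower). *Fkbp5*, a chaperone of the glucocorticoid receptor and one of its targets, was bright in control cells and fell from 456 to 20.3 (22.4-fold lower). One probe of *Taf4b*, a subunit of the general transcription factor TFIID, fell from 30.8 to 1.4 (22-fold lower), and the brighter one from 38.8 to 6.6 (5.87-fold lower). *Ascc3*, a helicase, fell from 104 to 4.9 (21.2-fold lower), *Impdh1*, an enzyme of guanine nucleotide synthesis, from 138 to 7.2 (19.1-fold lower), and *Polr1a*, the catalytic core of RNA polymerase I, from 59.0 to 3.1 (19.0-fold lower). The replication helicase gene *Mcm5* fell from 149 to 7.9 (18.8-fold lower), the glycosyltransferase gene *Gcnt2* from 413 to 22 (18.8-fold lower), the progestin receptor gene *Paqr8* from 37.1 to 2.0 (18.6-fold lower) and the ceramide synthase gene *Cers3* from 93.5 to 5.1 (18.3-fold lower).

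Among probes at 25 or more on both arrays, where both signals are well above the blanks, the rises below the 3 highest were led by *Hsp25-ps1*, from 56.2 to 1017 (18.1-fold higher), a pseudogene of *Hspb1*. *Spink8*, a serine protease inhibitor of the Kazal type, rose from 62.4 to 1034 (16.6-fold higher), the protease gene *Mmp7* from 191 to 2757 (14.5-fold higher) and the glutathione transferase gene *Gstm5* from 117 to 1672 (14.3-fold higher). The small heat shock protein gene *Hspb1*, which a probe may not separate from its pseudogene, rose from 141 to 1989 (14.1-fold higher). *Nupr1*, a small stress-induced nuclear protein, rose from 939 to 12877 (13.7-fold higher), among the highest levels of the array. *Sprr2b*, of the cornified envelope, rose from 255 to 3288 (12.9-fold higher), and the calcium-binding S100 genes *S100a3* and *S100a4* rose from 32.7 to 404 (12.3-fold higher) and from 116 to 1029.5 (8.85-fold higher). The histone gene *H4c8* rose from 39.7 to 429.9 (10.8-fold higher), the surfactant lectin gene *Sftpd* from 80.3 to 802 (9.98-fold higher) and *Fxyd2*, the gamma subunit of the sodium pump, from 34.5 to 312 (9.04-fold higher). *Nupr1*, *Gstm5* and *Sprr2b* are further genes that the study chose on these arrays.

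On the same filter the falls were led by *Noct*, a circadian NADP(H) phosphatase, from 561 to 41.9 (13.4-fold lower), and by *Hmgcs1*, which makes the HMG-CoA of cholesterol synthesis, for which both probes fell, from 765 to 68.3 (11.2-fold lower) and from 670.4 to 50.5 (13.3-fold lower). Cytoskeletal and adhesion genes followed: *Actn1*, the actin crosslinker alpha-actinin, fell from 494 to 41.8 (11.8-fold lower), *Cap1*, which recycles actin monomers, from 750.4 to 61.8 (12.1-fold lower), *Actr1a*, of the dynactin complex, from 314 to 26.0 (12.1-fold lower), and *Ctnnd1*, the p120 catenin of adherens junctions, from 313 to 30.9 (10.1-fold lower). The other probe of *Actr1a*, near the limit, did not fall, with levels of 2.82 and 3.8 (log2 ratio 0.43). *Emp1*, an epithelial membrane protein, fell from 1736 to 143 (12.2-fold lower), *Pdcd6ip*, of the endosomal sorting machinery, from 749.5 to 57.7 (13.0-fold lower), and *Ipo7*, a nuclear import receptor, from 273 to 31.2 (8.74-fold lower). *Eif2s3x*, a subunit of initiation factor 2, fell from 418 to 34.2 (12.2-fold lower), *Ywhaz*, a 14-3-3 protein often used as a reference gene, from 587 to 53.1 (11.1-fold lower), and *Pkm*, the pyruvate kinase of glycolysis, from 5341 to 498 (10.7-fold lower). The mitotic hyaluronan receptor gene *Hmmr* fell from 327 to 27.4 (11.9-fold lower) and the alarmin gene *Il33* from 309.6 to 27.7 (11.2-fold lower).

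Probes filled on 1 array alone give bounds. Of the 406 filled on the serum depletion array alone, 206 were at least 2-fold above the lowest filled control level of 1.0, and their median level was 2.0. *Reg3b*, an antibacterial lectin of the family of *Reg1*, stood apart at 1851, at least 1851-fold higher. The monocyte chemokine *Ccl7* was at least 32.6-fold higher, *Tmem145*, a membrane protein gene, at least 32.2-fold, the inflammatory caspase gene *Casp12* at least 26-fold, and the homeobox gene *Hoxa9* at least 21.6-fold. *Serpina1d*, an alpha-1 antitrypsin gene, was at least 14.4-fold higher, *Iapp*, which encodes islet amyloid polypeptide, at least 12.2-fold, *9630028B13Rik* at least 12.1-fold, the neuropeptide Y receptor gene *Npy1r* at least 10.2-fold, and *Tex43* at least 8.7-fold. Of the 1138 filled on the control array alone, 205 were at least 2-fold above the lowest filled serum depletion level of 1.4. *Mon2*, of membrane traffic, was at least 32.5-fold lower, the copper pump *Atp7b* at least 25-fold, *Esyt2*, which tethers the endoplasmic reticulum to the cell membrane, at least 22.9-fold, *Trim35* at least 21.7-fold and *Heatr5a* at least 20.8-fold. The pyruvate dehydrogenase regulator gene *Pdpr* was at least 20.2-fold lower, the transporter gene *Slc16a6* at least 20.1-fold, the DNA repair helicase gene *Ercc2* at least 18.3-fold, *Rasgrf2*, an exchange factor for Ras, at least 16.6-fold and the interleukin-1 receptor gene *Il1r1* at least 15.7-fold. For *Ercc2* and *Heatr5a* another probe was filled on both arrays, and it rose from 149 to 336 (2.25-fold higher) for *Ercc2* and went from 5.02 to 6.4 (1.27-fold higher) for *Heatr5a*.

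In 53 genes with 3 or more compared probes the mean log2 ratio was lowest for *Pds5a*, a cohesin cofactor, at -2.08 (probes from -3.06 to -0.78), *Xpot*, the exporter of tRNA, at -2.04 (-3.83 to -0.42), and the splicing regulator *Rbm10* at -1.56 (-2.77 to -0.14). It was highest for the histone gene *H2ac18* at 1.55 (0.77 to 3.04), *Atp10b*, a lipid flippase, at 1.15 (0.64 to 1.57), and the repressor *Zbtb20* at 1.11 (0.64 to 1.36). In each of these 6 genes every probe had the sign of the mean.

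Mitotic genes fell as a group. Of 48 compared genes of G2 and mitosis, 41 fell (85.4%, against 10.9% of all genes) and 0 rose, with a median log2 ratio of -2.11 against 0.17 over all genes and a median gene length of 20898 bp. The spindle checkpoint kinase gene *Bub1* fell from 42.1 to 2.3 (18.3-fold lower), the mitotic kinase gene *Plk1* from 75.1 to 4.6 (16.3-fold lower), and *Kif11*, the motor that separates the spindle poles, from 41.0 to 2.7 (15.2-fold lower). *Top2a*, which untangles DNA before division, fell from 159 to 11.4 (13.9-fold lower), and the cyclin gene *Ccna2* from 109 to 8.3 (13.1-fold lower). The levels on the serum depletion array were within a few units of the limit for many of these genes, and in the 14 measured at 25 or more on both arrays, 9 fell. A further 5 were filled on the control array alone, *Mybl2*, a transcription factor of the cell cycle, at least 14.1-fold lower, *Spc25*, *Kif15* and *Incenp* at least 3.49, 2.88 and 2.63-fold lower, and *Prc1* with a bound under 2-fold. The 7 compared genes that did not pass 2-fold were *Ube2c*, *Fam83d*, *Cenpf*, *Tpx2*, *Aurkb*, *Cdc25c* and *Bub3*, with log2 ratios of -0.70, -0.53, -0.53, -0.16, -0.08, -0.04 and 0.71. The proliferation marker gene *Mki67*, named here after its value was seen, fell from 87.1 to 20.1 (4.33-fold lower).

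Many promoters of mitotic genes hold the cell cycle homology region, TTTGAA, the site at which the DREAM repressor complex is known to bind in resting cells, with CCAAT boxes upstream of it. In RefSeq promoters (250 bases before to 50 after the start, build GRCm38.p6), searched on both strands, TTTGAA was in 31 of the 43 promoters of the compared mitotic genes (72.1%) and in 17.9% of all 32851 promoters, and CCAAT in 33 of them (76.7%) and in 37.4% of all. By gene, 25 of 29 with TTTGAA and 12 of 12 without it fell, with median log2 ratios of -2.12 in both groups. The last 220 bases of 4 promoters are printed 5′ to 3′ because these genes are among the 6 mitotic genes that fell most and each holds the motif, with TTTGAA and CCAAT of either strand in capitals.
Plk1, chr7:122159265-122159484, plus strand: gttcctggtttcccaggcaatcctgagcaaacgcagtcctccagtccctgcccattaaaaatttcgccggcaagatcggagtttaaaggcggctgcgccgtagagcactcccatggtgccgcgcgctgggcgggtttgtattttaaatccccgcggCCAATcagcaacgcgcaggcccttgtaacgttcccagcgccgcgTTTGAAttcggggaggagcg
Kif11, chr19:37376212-37376431, plus strand: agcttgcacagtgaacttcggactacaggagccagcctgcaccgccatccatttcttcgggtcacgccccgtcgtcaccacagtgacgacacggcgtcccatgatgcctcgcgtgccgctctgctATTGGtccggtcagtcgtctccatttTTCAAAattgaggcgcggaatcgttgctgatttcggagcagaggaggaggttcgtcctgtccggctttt
Top2a, chr11:99024140-99024359, minus strand: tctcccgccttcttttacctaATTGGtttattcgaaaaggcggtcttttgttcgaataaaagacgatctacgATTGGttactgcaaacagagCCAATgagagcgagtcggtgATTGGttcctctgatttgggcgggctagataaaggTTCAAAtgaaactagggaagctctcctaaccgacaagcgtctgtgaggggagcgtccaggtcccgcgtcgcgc
Hmmr, chr11:40733388-40733607, minus strand: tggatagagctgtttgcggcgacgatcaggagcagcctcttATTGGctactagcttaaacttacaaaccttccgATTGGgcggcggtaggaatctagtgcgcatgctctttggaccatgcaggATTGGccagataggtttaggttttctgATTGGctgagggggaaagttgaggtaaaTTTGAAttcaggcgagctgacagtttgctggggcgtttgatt

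Part of the genes of the G1/S transition and of DNA replication also fell. Of 51 compared, 20 fell (39.2%, against 10.9% of all genes) and 1, *Gins4* of the replication helicase, from 199 to 412 (2.07-fold higher), rose, with a median log2 ratio of -0.78 and a median length of 17347 bp. After *Mcm5*, the falls were led by the chromatin assembly gene *Chaf1a* (31.6 to 3.5, 9.04-fold), the helicase subunit *Mcm3* (134 to 16.8, 7.99-fold), the licensing factor *Cdc6* (49.0 to 8.0, 6.12-fold) and *Rrm2*, which makes deoxynucleotides, from 157 to 27.0 (5.81-fold lower). The E2F site TTTCGCGC was in 8 of the 53 promoters of the compared genes (15.1%) and in 0.323% of all promoters. By gene, 3 of 8 with the site and 15 of 34 without it fell, with median log2 ratios of -0.73 and -0.96. The promoter of *Mcm5*, the gene of this list that fell most, holds the site, shown in capitals.
Mcm5, chr8:75109339-75109558, plus strand: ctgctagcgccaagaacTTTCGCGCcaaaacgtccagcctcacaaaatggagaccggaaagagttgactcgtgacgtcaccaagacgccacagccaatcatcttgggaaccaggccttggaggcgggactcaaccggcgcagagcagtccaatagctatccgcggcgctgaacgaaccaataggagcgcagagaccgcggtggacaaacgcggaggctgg

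Genes of cell cycle arrest and of the p53 pathway moved in both directions. Of 35 compared genes of the CDK inhibitors, the RB family and p53, 7 rose and 6 fell. The counts turned with the scaling, to 4 and 10 with no scaling, 6 and 8 at equal 75th percentiles, 5 and 10 after quantile normalization, 5 and 10 after cyclic loess, 2 and 5 after normexp correction and 5 and 8 with length-class medians subtracted. *Cdkn2b*, which encodes the inhibitor p15, rose from 588 to 2659.7 (4.52-fold higher), the retinoblastoma gene *Rb1* from 1227 to 4555 (3.71-fold higher) and *Cdkn1c*, encoding p57, from 33.3 to 95.4 (2.86-fold higher). The p53 relative *Trp73* rose from near the limit, from 1.41 to 8.0 (5.68-fold higher), and the repair polymerase *Polk* from 182 to 485 (2.67-fold higher). The p53 inhibitor *Mdm4* fell from 18 to 2.2 (8.18-fold lower), the death receptor gene *Eda2r* from 30.3 to 9.1 (3.33-fold lower), *Apaf1* of the apoptosome from 61.3 to 19.8 (3.09-fold lower), *Cdkn3* from 23.3 to 9.4 (2.48-fold lower) and the RB relative *Rbl1* from 42.8 to 18.2 (2.35-fold lower). *Cdkn1a*, encoding p21, was at 381 and 198 (log2 ratio -0.95) and *Cdkn2a*, whose products include p16, at 34.7 and 44.9 (log2 ratio 0.37), neither past 2-fold. Both are named because of their role, after their values were seen.

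Among 27 compared genes of chromatin in senescence, 6 fell (22.2%, against 10.9% of all genes) and 2 rose. *Lbr*, the lamin B receptor, fell from 125 to 31.7 (3.95-fold lower), *Lmnb1*, lamin B1, from 149 to 44.1 (3.38-fold lower), the DNA-bending *Hmgb2* from 467 to 154 (3.02-fold lower), the histone chaperone *Asf1b* from 84.6 to 32.5 (2.60-fold lower), the lamina protein *Tmpo* from 331 to 139 (2.38-fold lower) and the Polycomb methyltransferase *Ezh2* from 496 to 214 (2.32-fold lower). The variant histone gene *Macroh2a2* rose from 113 to 232 (2.05-fold higher), and *Hmgn1* from 1.86 to 3.8 (2.04-fold higher).

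Replication-dependent histone genes went the other way from the replication genes. Of 47 compared, 24 rose (51.1%, against 14.0% of all genes) and 1, *H2ac24* (2089 to 905, 2.31-fold), fell, with a median log2 ratio of 1.27. These intronless genes, of a median length of 483 bp, normally give mRNA that ends in a stem-loop and lacks a poly(A) tail. Histone H4 genes led the rises, with *H4c8* as given above, *H4c3* from 7.08 to 61.0 (8.62-fold higher), *H4c12* from 30.0 to 254 (8.46-fold higher), *H4c18* from 152 to 1177 (7.76-fold higher) and *H4c11* from 2.23 to 16.9 (7.59-fold higher). Members of the family are near-identical in sequence and probes may not separate them. Of the 41 promoters of compared histone genes, 34 held CCAAT (82.9%), against 37.4% of all promoters. By gene, 16 of 33 with CCAAT and 7 of 7 without it rose, with median log2 ratios of 0.93 and 2.92. Under the alternatives of scaling, filter and limit 18 to 29 of the histone genes rose.

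**Figure D4:**
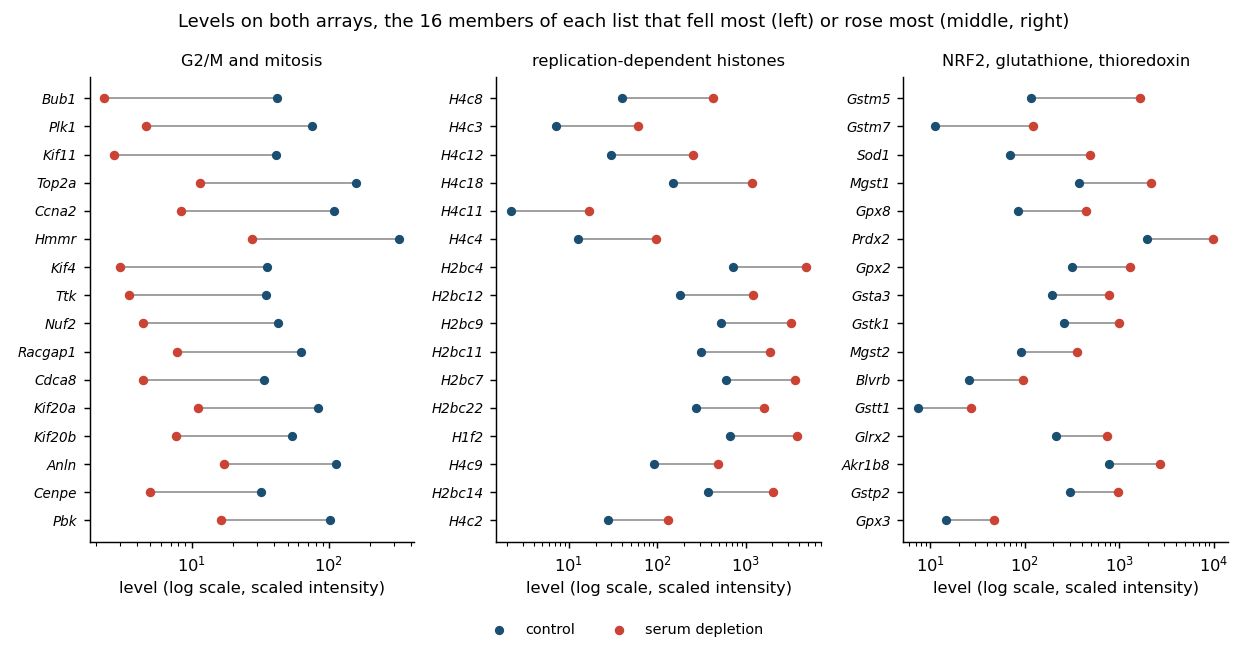
Levels on the control array (blue) and the serum depletion array (red) for the 16 mitotic genes that fell most (left) and the 16 histone (middle) and antioxidant genes (right) that rose most (horizontal log axis, scaled intensity). *Bub1* went from 42.1 to 2.3, *H4c8* from 39.7 to 429.9 and *Gstm5* from 117 to 1672, and list members that moved the other way are not drawn.

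Genes that respond to serum within minutes or hours fell more often than they rose. Of 29 compared immediate early genes, 8 fell (27.6%, against 10.9% of all genes) and 1 rose, with a median log2 ratio of -0.13. *Zfp36*, which destabilizes cytokine mRNA, fell from 46.9 to 6.3 (7.44-fold lower), the Krüppel-like factor *Klf5* from 374 to 65.6 (5.70-fold lower), *Fos*, of the AP-1 factor, from 96.8 to 34.6 (2.80-fold lower), *Egr1* from 41.0 to 15.4 (2.66-fold lower) and *Myc* from 399 to 152 (2.63-fold lower). The survival gene *Ier3* rose from 2530.5 to 9141 (3.61-fold higher). Of 34 actin cytoskeleton genes bound by serum response factor, 9 fell (26.5%, against 10.9% of all genes) and 2 rose, with a median log2 ratio of -0.32. After *Actn1*, the muscle actin *Acta1* fell from 200.5 to 43.3 (4.63-fold lower), the actin-binding *Lima1* from 112 to 28.8 (3.88-fold lower), the tropomyosin *Tpm4* from 2296 to 721 (3.19-fold lower) and the smooth muscle actin *Actg2* from 208 to 70.4 (2.95-fold lower). The calponin *Cnn3* (249 to 773, 3.10-fold) and *Fhl1* (22.7 to 53.9, 2.37-fold) rose.

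Of 27 compared feedback and output genes of the ERK kinase pathway, 4 fell and 3 rose. After *Emp1*, the ERK phosphatase gene *Dusp5* fell from 188 to 42.1 (4.47-fold lower), the adaptor *Sh2b3* from 12.1 to 3.5 (3.47-fold lower) and the inhibitor *Spry1* from 58.5 to 25.1 (2.33-fold lower). The nuclear phosphatase *Dusp2* rose from 7.38 to 53.5 (7.25-fold higher), the inhibitor *Spred3* from 14.7 to 97.4 (6.61-fold higher) and the growth factor *Hbegf* from 179 to 615 (3.43-fold higher). Among YAP and TEAD genes and their targets 9 of 29 fell (31.0%, against 10.9% of all genes) and 5 rose (17.2%, against 14.0%), but 2 fell and 5 rose among those at 25 or more on both arrays. *Thbs1*, thrombospondin, fell from 176 to 10.4 (16.9-fold lower), *Nt5e*, which makes adenosine, from 179.6 to 15 (12-fold lower), *Ajuba* from 289.9 to 40.5 (7.16-fold lower), *Yap1* itself from 58.1 to 13.1 (4.44-fold lower) and the phosphatase *Ptpn14* from 12.1 to 2.9 (4.17-fold lower). The rises were *Arhgef17* (56.4 to 143, 2.53-fold), the kinase *Lats2* (139.9 to 330.1, 2.36-fold), *Fjx1* (46.5 to 107, 2.30-fold), *Amotl1* (134.8 to 305, 2.26-fold) and endothelin, *Edn1*, from 365 to 733 (2.01-fold higher). The other probe of *Amotl1* fell from 49.1 to 5.3 (9.27-fold lower).

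Receptors and ligands of growth factors moved in both directions. Of 33 receptor tyrosine kinases compared, 7 rose and 6 fell. These became 2 and 8 with no scaling, 5 and 6 at equal 75th percentiles, 5 and 7 after quantile normalization, 4 and 7 after cyclic loess, 1 and 3 after normexp correction and 3 and 4 on log2 of level plus 5. *Egfr*, the receptor for the epidermal growth factor present in the medium, rose from 183 to 824 (4.51-fold higher), the vascular endothelial growth factor receptor *Kdr* from 20.4 to 49.1 (2.40-fold higher) and the ephrin receptors *Ephb6* from 5.03 to 14.1 (2.80-fold higher) and *Epha3* from 1.15 to 2.7 (2.35-fold higher), with *Tyro3* from 8.99 to 20.0 (2.22-fold higher). Besides *Met*, the stem cell factor receptor *Kit* fell from 30.7 to 2.5 (12.3-fold lower), *Ret* from 75.9 to 8.9 (8.53-fold lower), the ephrin receptor *Epha2* from 421 to 69.0 (6.10-fold lower), *Fgfr4* from 12.5 to 4.4 (2.84-fold lower) and the insulin receptor *Insr* from 4.81 to 1.8 (2.67-fold lower). *Erbb2* was filled on the control array alone and at least 6.17-fold lower. Of 8 ligands of the epidermal growth factor family, *Hbegf* and *Nrg4* (12.2 to 24.6, 2.02-fold) rose, and *Tgfa* (22.6 to 2.0, 11.3-fold), *Nrg1* (107 to 26.3, 4.05-fold) and *Ereg* (156 to 77.1, 2.02-fold) fell, or 2 and 2 with the median over probes filled on both arrays.

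In the insulin and insulin-like growth factor (IGF) list 4 of 25 rose and 7 fell, with equal counts of 4 and 4 at a limit of 5 SD and of 2 and 2 at 25 or more on both arrays. *Igfbp7*, a secreted IGF-binding protein raised in senescent cells, reached one of the highest levels of the array, from 5757 to 22951 (3.99-fold higher). *Igfbp5* rose from 2.62 to 9.4 (3.59-fold higher), *Igf2* from 5.40 to 17.7 (3.28-fold higher) and the receptor *Igf1r* from 136 to 281 (2.07-fold higher). *Igfbp3* fell from 169.5 to 51.3 (3.30-fold lower), and low-level genes of the signalling chain fell with it, *Tsc1* from 11.5 to 3.1 (3.70-fold lower), *Irs1* from 6.47 to 1.9 (3.40-fold lower), *Rictor* from 12.1 to 4.2 (2.89-fold lower) and *Insr*. FOXO factors are active when insulin signalling is low, and of 27 FOXO genes and targets 4 rose and 3 fell. The autophagy gene *Gabarapl1* rose from 189 to 1113 (5.90-fold higher), the ubiquitin ligase *Fbxo32* from 13.4 to 52.2 (3.90-fold higher), the mitochondrial kinase *Pink1* from 44.3 to 116 (2.61-fold higher) and *Pik3ip1* from 82.1 to 188 (2.28-fold higher). The repressor *Bcl6* (47.9 to 8.5, 5.63-fold), *Bcl2l11* (24.5 to 8.7, 2.82-fold) and *Insr* fell. The median of the list, 0.12, was close to that of all genes, and with no scaling 2 rose and 3 fell.

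Serum also carries glucocorticoids. Of 24 compared genes of the glucocorticoid receptor list, 6 fell and 5 rose, and of those at 25 or more on both arrays 0 fell and 5 rose. The receptor gene *Nr3c1* fell from 42.9 to 4.9 (8.75-fold lower), and after *Fkbp5* its targets *Zfp36*, *Bcl6* and *Tfcp2l1* (23.8 to 9.3, 2.56-fold) fell. The metallothioneins *Mt2* (394 to 2389.9, 6.06-fold) and *Mt1* (851 to 3983, 4.68-fold), which bind zinc and copper, rose, with *Cdkn1c* and the NF-kB inhibitor *Nfkbia*, from 265 to 656 (2.48-fold higher). In the circadian list 5 of 18 fell (27.8%, against 10.9% of all genes) and 2 rose (11.1%, against 14.0%). After *Noct*, *Cry1* fell from 79.1 to 23.8 (3.32-fold lower), *Nr1d1* from 9.13 to 3.2 (2.85-fold lower), *Ciart* from 10.5 to 4.2 (2.50-fold lower) and *Clock* from 166 to 67.8 (2.45-fold lower). The clock regulators *Rora* (4.51 to 20.4, 4.52-fold) and *Nfil3* (66.6 to 182, 2.73-fold) rose.

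Rises were frequent among subunits of the respiratory chain and ATP synthase, which make ATP in mitochondria. Of 87 compared nuclear genes, 66 rose (75.9%, against 14.0% of all genes) and 1 fell, with a median log2 ratio of 1.46. *Uqcrh* of complex III rose from 690.4 to 3726 (5.40-fold higher), *Ndufa11* of complex I from 471 to 2498 (5.31-fold higher), *Atp5o* and *Atp5g1* of ATP synthase from 74.2 to 384 (5.17-fold higher) and from 162 to 816 (5.04-fold higher), and *Ndufa7* from 959 to 4408 (4.60-fold higher). *Ndufb2* was the exception, from 78.5 to 31.1 (2.52-fold lower). These genes are bright and short, with a median length of 7131 bp. The count of rises was 28 after quantile normalization, 26 after cyclic loess and 20 after normexp correction, while with the median of each length class subtracted 55 rose.

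Mitochondrial ribosomal proteins followed, with 37 of 76 compared genes risen (48.7%, against 14.0% of all genes) and 1, *Mrpl33* (5.89 to 2.3, 2.56-fold), fallen. Their median log2 ratio was 0.99 and their median length 7806 bp. *Mrps6* rose from 477 to 2523 (5.28-fold higher), *Mrpl47* from 22.6 to 119 (5.24-fold higher), *Mrpl23* from 221 to 1122 (5.08-fold higher), *Mrps12* from 351 to 1468 (4.19-fold higher) and *Mrpl14* from 385 to 1446 (3.75-fold higher). The count was 18 after quantile normalization, 15 after cyclic loess, 13 after normexp correction and 17 with no scaling. Of 61 cytosolic ribosomal protein genes 26 rose (42.6%, against 14.0% of all genes) and 0 fell, with a median of 0.92 and a median length of 3183 bp. However, the counts of rises were 4, 4 and 2 after quantile normalization, cyclic loess and normexp correction. *Rpl38* (27.9 to 150.4, 5.40-fold), *Rpl37* (12 to 50.8, 4.23-fold), *Rpl11* (2150.5 to 7466, 3.47-fold), *Rpl36a* (4980.4 to 15998, 3.21-fold) and *Rpl34* (4914 to 14233, 2.90-fold) led them, and processed pseudogenes of these genes may share their probes.

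In the machinery that makes ribosomes the share of falls was near that of all genes. Of 66 compared genes of ribosome biogenesis and RNA polymerase I, 9 fell (13.6%, against 10.9% of all genes) and 3 rose (4.55%, against 14.0% of all genes), or 8 and 8 with the median over probes filled on both arrays. Besides *Polr1a*, the rRNA methyltransferase *Nop2* fell from 216 to 26.2 (8.24-fold lower), the processing factor *Wdr3* from 128 to 28.8 (4.46-fold lower), the polymerase subunit *Polr1b* from 52.0 to 13.3 (3.91-fold lower) and *Utp15* from 128 to 36.8 (3.47-fold lower). The small proteins *Nop10* (917 to 2746, 2.99-fold), *Utp23* (72.1 to 182, 2.53-fold) and *Polr1d* (658 to 1474, 2.24-fold) rose. Among 43 initiation and elongation factors 7 fell and 4 rose. After *Eif2s3x*, *Eif4h* fell from 534 to 65.2 (8.18-fold lower), the scaffold *Eif4g2* from 1599 to 471 (3.40-fold lower), *Eif3a* from 613 to 196 (3.12-fold lower) and *Eif4b* from 903 to 297 (3.05-fold lower). The factors *Eif1b* (262 to 782, 2.98-fold), *Eif3k* (1176 to 3316, 2.82-fold) and *Eef1d* (2526 to 5656, 2.24-fold) rose. The other gene of the list that rose was *Eif2s3y* (5.47 to 11.3, 2.07-fold) of the Y chromosome, which these cells from females lack, and its probe may read other copies of the gene. Of 21 cytosolic aminoacyl-tRNA synthetase genes, *Aars* (7.62 to 1.8, 4.24-fold), *Vars* (211 to 55.3, 3.82-fold), *Wars* (505 to 137, 3.70-fold) and *Lars* (251 to 104, 2.42-fold) fell, and the complex scaffold gene *Eef1e1* (494 to 1056, 2.14-fold) rose.

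Several genes of glycolysis fell. Of 31 compared genes 7 fell (22.6%, against 10.9% of all genes) and 1 rose, with a median log2 ratio of -0.41 and a median length of 19799 bp. Hexokinase, *Hk1*, fell from 225 to 16 (14.1-fold lower), the phosphofructokinases *Pfkl* and *Pfkp* from 383 to 59.3 (6.46-fold lower) and from 129 to 27.2 (4.75-fold lower), *Pdk1*, a kinase that inhibits pyruvate dehydrogenase, from 92.3 to 23.7 (3.90-fold lower), the lactate carrier *Slc16a1* from 111 to 53.4 (2.08-fold lower) and *Hif1a*, the hypoxia factor, from 159.9 to 78.8 (2.03-fold lower), besides *Pkm*. The lactate dehydrogenase subunit *Ldhb* rose from 126 to 1044 (8.26-fold higher). In the tricarboxylic acid cycle 5 of 27 rose and 5 fell. *Mdh1* rose from 1280.1 to 3341 (2.61-fold higher), *Suclg1* from 1026 to 2520.0 (2.46-fold higher), *Idh3g* from 611 to 1244 (2.04-fold higher) and the succinate dehydrogenase subunits *Sdhc* from 994 to 2008 (2.02-fold higher) and *Sdhb* from 451 to 907 (2.01-fold higher). The cytosolic aconitase *Aco1* fell from 325 to 58.7 (5.54-fold lower), the pyruvate carboxylase gene *Pcx* from 95.3 to 36.8 (2.59-fold lower), *Me2* from 129 to 59.5 (2.16-fold lower), *Pdha1* from 401 to 192 (2.09-fold lower) and *Idh1* from 665 to 324 (2.05-fold lower).

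Serum supplies cholesterol and fatty acids, and cells without it usually raise the synthesis of both. Of 24 compared genes of cholesterol synthesis and uptake 6 fell (25%, against 10.9% of all genes) and 2 rose (8.33%, against 14.0%). After *Hmgcs1*, *Dhcr7* fell from 115 to 29.2 (3.95-fold lower), the sterol sensor *Insig1* from 140.2 to 40.5 (3.46-fold lower), the regulator *Srebf2* from 215 to 76.3 (2.82-fold lower) and *Cyp51* from 1129 to 504 (2.24-fold lower). The exporter *Abcg1* (3.51 to 11.1, 3.16-fold) and *Tm7sf2* (739 to 2036, 2.75-fold) rose. In fatty acid synthesis 5 of 27 fell (18.5%, against 10.9% of all genes), *Acly*, which makes cytosolic acetyl-CoA, from 467 to 93.8 (4.98-fold lower), *Dgat2* from 173 to 63.0 (2.75-fold lower), the desaturase *Fads2* from 119.8 to 44.7 (2.68-fold lower), *Acsl4* from 172 to 70.7 (2.43-fold lower) and *Gpam* from 19.3 to 8.2 (2.36-fold lower). Malic enzyme, *Me1*, rose from 1705 to 4026 (2.36-fold higher). In fatty acid oxidation and peroxisomes 10 of 52 rose (19.2%, against 14.0% of all genes), led by *Eci1* (349.6 to 1261, 3.61-fold), *Pex11a* (49.6 to 163, 3.28-fold), *Acox2* (3.38 to 10.5, 3.11-fold), *Eci2* (346 to 1002, 2.90-fold) and *Etfb*, from 637 to 1798 (2.82-fold higher). The lipid receptor *Pparg* (329.9 to 88.6, 3.72-fold) and the carnitine acetyltransferase gene *Crat* (114 to 39.4, 2.89-fold) fell. With no scaling 5 genes of this list rose and 5 fell.

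Many antioxidant genes rose. Of 59 compared targets of NRF2, glutathione and thioredoxin genes, 27 rose (45.8%, against 14.0% of all genes) and 4 fell, with a median log2 ratio of 0.90 and a median length of 13944 bp. After *Gstm5*, the transferase *Gstm7* rose from 11.1 to 122 (11-fold higher), the superoxide dismutase gene *Sod1* from 69.2 to 488 (7.06-fold higher), the membrane transferase *Mgst1* from 375 to 2142 (5.70-fold higher) and the glutathione peroxidase *Gpx8* from 84.0 to 447 (5.32-fold higher). The 4 that fell were *Osgin1* (1002 to 155, 6.46-fold), the glutathione reductase gene *Gsr* (537 to 196, 2.74-fold), the pentose phosphate gene *Pgd* (733 to 268, 2.74-fold) and the peroxiredoxin gene *Prdx4* (74.1 to 27.2, 2.72-fold). NRF2 binds TGACNNNGC, which was in 15.3% of the 72 promoters of compared genes and in 12.4% of all promoters. Of 15 metal handling genes 3 rose, *Mt1*, *Mt2* and the copper carrier ceruloplasmin, *Cp*, from 12.6 to 191 (15.2-fold higher). With no scaling 3 of the list rose and 5 fell. The iron exporter *Slc40a1* (143 to 35.7, 4.0-fold) and the transferrin receptor *Tfrc* (507 to 166, 3.06-fold) fell.

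Stress pathways were split. Of 32 cytosolic chaperones 7 rose and 3 fell, or 4 and 4 with no scaling, 5 and 5 after quantile normalization, 5 and 6 after cyclic loess and 4 and 5 after normexp correction. Besides *Hspb1*, *Hspb8* rose from 19.8 to 79.8 (4.03-fold higher), the mitochondrial chaperonin *Hspe1* from 614 to 2178 (3.55-fold higher), *Dnajb4* from 107 to 354 (3.29-fold higher) and *Dnaja1* from 257 to 643 (2.50-fold higher). The chaperones *Hsph1* (496 to 179.8, 2.76-fold), *Stip1* (856 to 377, 2.27-fold) and *Cct6a* (1021 to 509, 2.01-fold) fell. In the unfolded protein response 8 of 35 rose and 6 fell. Under other settings these were 4 and 9 with no scaling, 5 and 7 at equal 75th percentiles, 6 and 8 after quantile normalization, 4 and 8 after cyclic loess, 3 and 4 after normexp correction and 5 and 7 with length-class medians subtracted. *Sdf2l1* rose from 126 to 508 (4.03-fold higher), *Manf* from 791 to 2894 (3.66-fold higher), the translocon subunit *Sec61b* from 917 to 3211 (3.50-fold higher), *Selenok* from 772 to 2657 (3.44-fold higher) and the disulfide isomerase *Pdia3* from 909 to 2229 (2.45-fold higher). *Sel1l*, of the degradation complex, fell from 92.9 to 6.8 (13.7-fold lower), the calreticulin gene *Calr* from 642 to 156 (4.13-fold lower), *Wfs1* from 223 to 72.7 (3.07-fold lower), the sensor *Atf6* from 77.2 to 31.4 (2.46-fold lower) and *Hyou1* from 37.2 to 16.7 (2.23-fold lower).

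Targets of the integrated stress response, which ATF4 drives when amino acids run short, fell in 10 of 36 (27.8%, against 10.9% of all genes) and rose in 4, with a median log2 ratio of -0.52. The glutamine carrier *Slc38a2* fell from 537 to 69.4 (7.74-fold lower), *Aldh18a1* of proline synthesis from 261 to 43.3 (6.03-fold lower), the mitochondrial folate enzymes *Mthfd1l* from 53.3 to 10.1 (5.28-fold lower) and *Aldh1l2* from 14.9 to 3.5 (4.27-fold lower), and *Wars*. The rises were *Nupr1*, *Cbs* of cysteine synthesis, from 21.1 to 79.0 (3.74-fold higher), *Stc2* (211 to 651, 3.08-fold) and *Ddit3*, which encodes CHOP, from 339.7 to 748 (2.20-fold higher). Of 27 amino acid transporters 7 fell and 3 rose. *Slc6a14* (29.7 to 7.3, 4.07-fold), *Slc1a4* (80.5 to 22.1, 3.64-fold), *Slc7a6* (170.0 to 61.8, 2.75-fold) and *Slc38a7* (37.5 to 14.6, 2.57-fold) fell besides *Slc38a2*. The betaine carrier *Slc6a12* rose from 6.98 to 65.0 (9.31-fold higher), the creatine carrier *Slc6a8* from 73.3 to 197 (2.68-fold higher) and *Slc6a20a* from 10.3 to 23.2 (2.25-fold higher).

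Protein breakdown was described by lists of the proteasome, ubiquitin-specific proteases, lysosomes, autophagy and the lysosomal proton pump. Of 41 proteasome genes 18 rose (43.9%, against 14.0% of all genes) and 3 fell, with a median log2 ratio of 0.92 and a median length of 12432 bp, but after quantile normalization, cyclic loess or normexp correction 3 rose and 3 fell. *Psmb3* rose from 735 to 2561 (3.49-fold higher), *Psma3* from 316 to 1003 (3.17-fold higher), *Psmb4* from 1427 to 4506 (3.16-fold higher), *Psmb1* from 1725 to 5227 (3.03-fold higher) and *Psma5* from 1129 to 3200.1 (2.84-fold higher), all of the core. The activator *Psme4* (228 to 55.9, 4.07-fold), the nuclear activator *Psme3* (218 to 61.9, 3.53-fold) and *Psmd3* of the regulatory particle (909 to 352, 2.58-fold) fell. Ubiquitin-specific proteases, most of them long genes (median 50772 bp), fell in 16 of 46 (34.8%, against 10.9% of all genes) and rose in 2. After *Usp22*, *Usp7*, which stabilizes MDM2, fell from 74.9 to 6.5 (11.5-fold lower), the mitochondrial *Usp30* from 48.9 to 10.6 (4.62-fold lower), *Usp1* of DNA repair from 106 to 24.9 (4.26-fold lower) and *Usp45* from 17.7 to 4.6 (3.85-fold lower). The proteases *Usp47* (417 to 995, 2.39-fold) and *Usp24* (149.6 to 349, 2.34-fold) rose.

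Of 59 lysosomal genes 14 rose (23.7%, against 14.0% of all genes) and 3 fell. Their median log2 ratio was 0.20, close to that of all genes, and with no scaling 5 rose and 7 fell. *Glb1*, the beta-galactosidase whose activity is used to stain senescent cells, rose from 83.8 to 342 (4.08-fold higher), the cathepsin *Ctsf* from 6.17 to 21.5 (3.48-fold higher), the acid lipase *Lipa* from 60.3 to 181 (3.0-fold higher), *Laptm4a* from 1478 to 4147 (2.81-fold higher) and the cholesterol carrier *Npc2* from 686 to 1874 (2.73-fold higher). The genes of a sulfatase, *Ids* (16.1 to 4.5, 3.58-fold), and of a cathepsin, *Ctsc* (134.8 to 38.9, 3.47-fold), and the regulator *Tfe3* (27.8 to 12.3, 2.26-fold) fell. The factors TFEB and TFE3 bind CACGTG, which was in 21.5% of the 65 promoters of compared lysosomal genes and in 7.2% of all. Among the 14 genes that held it 6 rose and 0 fell, against 5 and 3 of 35 without it. The promoter of *Ctsd*, the cathepsin with the highest level among the lysosomal rises, from 4138 to 10478 (2.53-fold higher), is shown with the motif in capitals.
Ctsd, chr7:142387778-142387997, minus strand: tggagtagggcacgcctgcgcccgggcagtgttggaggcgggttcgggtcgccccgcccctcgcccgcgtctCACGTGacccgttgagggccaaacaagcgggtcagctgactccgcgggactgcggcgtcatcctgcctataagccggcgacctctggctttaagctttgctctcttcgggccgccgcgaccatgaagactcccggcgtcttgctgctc

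In autophagy, by which cells digest their own contents, 12 of 42 genes rose (28.6%, against 14.0% of all genes) and 3 fell. With no scaling 4 rose and 7 fell. Besides *Gabarapl1*, *Map1lc3a*, which encodes a protein of the autophagosome membrane, rose from 309 to 1473 (4.77-fold higher), *Atg10* from 30.6 to 94.6 (3.09-fold higher), *Atg4c* from 3.25 to 9.5 (2.92-fold higher) and *Wdr45* from 47.8 to 126 (2.64-fold higher). The receptor *Nbr1* (174 to 56.6, 3.07-fold), *Atg9a* (6.62 to 2.3, 2.88-fold) and *Calcoco1* (23 to 8.7, 2.64-fold) fell. Of 22 subunits of the proton pump of lysosomes *Atp6v1f* (1993 to 7498, 3.76-fold), *Atp6v1g1* (712 to 2643, 3.71-fold) and *Atp6v0e* (2133 to 5594, 2.62-fold) rose and *Atp6v0a1* (213 to 94.2, 2.26-fold) fell, or 2 and 2 with no scaling and 1 and 1 after cyclic loess.

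Several proteases of the extracellular matrix rose. Of 18 compared matrix metalloproteinases and inhibitors 8 rose (44.4%, against 14.0% of all genes) and 2 fell, with a median log2 ratio of 0.70 and a median length of 13462 bp. After *Mmp12*, *Mmp13* and *Mmp7*, *Mmp11* rose from 65.6 to 418 (6.37-fold higher) and the stromelysin *Mmp10* from 1.45 to 7.4 (5.09-fold higher), with the inhibitors *Timp3* (486 to 2245, 4.62-fold) and *Timp1* (38.0 to 78.1, 2.06-fold) and *Mmp1b*, from 1.36 to 3.0 (2.20-fold higher). The membrane enzyme *Mmp14* (132 to 13.5, 9.80-fold) and *Timp2* (319 to 79.6, 4.01-fold) fell. The AP-1 site TGACTCA was in 6 of the 18 promoters of compared genes (33.3%) and in 5.2% of all, and 5 of the 6 genes that held it rose, against 3 of 9 without it. The promoter of *Mmp13* is shown as one of them, with the site in capitals.
Mmp13, chr9:7272344-7272563, plus strand: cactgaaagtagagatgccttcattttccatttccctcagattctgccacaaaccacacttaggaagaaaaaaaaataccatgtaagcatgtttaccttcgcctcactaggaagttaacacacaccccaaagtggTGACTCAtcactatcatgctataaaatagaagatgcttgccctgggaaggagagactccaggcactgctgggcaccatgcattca

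Structural matrix genes moved both ways. Of 36 collagens 4 rose and 4 fell, with *Col22a1* (3.31 to 17.7, 5.34-fold), *Col7a1* (13.6 to 43.2, 3.17-fold), *Col4a3* (1.10 to 3.1, 2.82-fold) and *Col1a2* (13.0 to 30.5, 2.34-fold) higher. The basement membrane collagen *Col4a1* (163 to 11.5, 14.2-fold), *Col6a4* (6.38 to 2.2, 2.90-fold), *Col15a1* (7.43 to 3.0, 2.48-fold) and *Col18a1* (175 to 73.1, 2.40-fold) were lower. Of 34 laminins, basement membrane and matricellular genes, 6 rose and 5 fell. The counts were 4 and 5 at a limit of 5 SD, 1 and 3 at 25 or more on both arrays, 4 and 6 with no scaling, 2 and 2 after normexp correction and 3 and 4 on log2 of level plus 5. Fibronectin, *Fn1*, rose from 293 to 1177 (4.02-fold higher), the tenascin gene *Tnc* from 20.1 to 98.2 (4.89-fold higher), the laminin *Lama4* from 4.17 to 26.0 (6.24-fold higher) and the crosslinking enzyme *Loxl2* from 1.77 to 4.9 (2.77-fold higher), with *Bgn* from 2.86 to 7.7 (2.69-fold higher). After *Thbs1*, *Efemp1* fell from 29.0 to 7.2 (4.03-fold lower), and so did the epithelial laminins *Lama3* from 139 to 55.1 (2.52-fold lower) and *Lamb3* from 646 to 259 (2.50-fold lower), and *Lamc1* from 112 to 54.9 (2.04-fold lower). Of 24 integrins *Itga3* (282 to 20.2, 14.0-fold), *Itga2* (91.9 to 11.7, 7.85-fold), *Itga6* (209 to 36.7, 5.70-fold) and *Itgb6* (247 to 99.5, 2.48-fold) fell, and the leukocyte integrin *Itgal* (1.30 to 3.5, 2.70-fold) rose at the limit of detection. *Itga3* and *Itga6* encode subunits of laminin receptors.

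Among the plasminogen system and serpins, 9 of 44 rose and 5 fell, or 9 and 9 with no scaling and 1 and 3 after normexp correction. Of 18 at 25 or more on both arrays 1 rose and 0 fell, with a median log2 ratio of -0.09. The acute phase serpin *Serpina3f* rose from 1.75 to 18.4 (10.5-fold higher), the antitrypsin gene *Serpina1c* from 1.60 to 14.6 (9.12-fold higher), the neuroserpin gene *Serpini1* from 12.2 to 94.7 (7.79-fold higher), *Serpina9* from 1.76 to 9.1 (5.18-fold higher) and *Serpinb1b* from 24.3 to 82.7 (3.40-fold higher). *Serpinb2*, which inhibits urokinase, fell from 139 to 19.7 (7.06-fold lower), and urokinase itself, *Plau*, fell from 36.3 to 10.7 (3.40-fold lower).

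Of 69 compared cadherins, claudins, desmosome and connexin genes, 12 fell (17.4%, against 10.9% of all genes) and 4 rose. *Cldn1* fell from 28.1 to 3.0 (9.35-fold lower), the cadherin *Cdh6* from 129 to 16.9 (7.65-fold lower), *Cldn24* from 56.7 to 7.9 (7.18-fold lower), the tricellular junction gene *Marveld2* from 76.7 to 11.7 (6.55-fold lower) and the connexin *Gjb2* from 15.6 to 2.5 (6.23-fold lower). N-cadherin, *Cdh2*, rose from 6.87 to 69.9 (10.2-fold higher), *Gja5* from 1.22 to 3.2 (2.63-fold higher), *Gja3* from 15.5 to 35.1 (2.27-fold higher) and the pore-forming *Cldn2* from 647 to 1361 (2.10-fold higher). Of 39 keratin genes *Krt6a* (41.5 to 8.4, 4.95-fold), *Krt4* (10.2 to 3.2, 3.19-fold) and *Krt23* (723 to 262, 2.76-fold) fell, and *Krt27* (1.11 to 2.3, 2.07-fold) rose at the limit of detection.

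The list of small proline-rich and cornified envelope genes, which toughen stratified epithelia, also held S100 genes such as *S100a3* and *S100a4*. Of its 47 compared genes 20 rose (42.6%, against 14.0% of all genes) and 2 fell. Their median log2 ratio was 0.66, and they are short, with a median length of 2010.0 bp. After *Sprr2b*, *S100a3* and *S100a4*, the late envelope genes *Lce1b* (3.03 to 21.2, 7.01-fold) and *Lce1f* (186 to 851, 4.58-fold) rose most, and the periplakin gene *Ppl* (375 to 131, 2.86-fold) and the loricrin gene *Lor* (435 to 153, 2.84-fold) fell.

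Genes of bile secretion and transport gave no common direction. Of 28 compared secretion genes 7 fell and 4 rose. The sodium-proton exchanger *Slc9a2* fell from 25 to 5.6 (4.47-fold lower), with *Aqp1*, the exporter *Abcc3* (178 to 62.5, 2.85-fold), *Fgfr4* and the nucleotide receptor *P2ry2*, from 108 to 46.3 (2.34-fold lower). Aquaporin 5, *Aqp5*, rose from 5412 to 11304 (2.09-fold higher), the exchanger *Slc9a3* from 12.8 to 26.8 (2.09-fold higher), *P2ry1* from 16.6 to 39.8 (2.40-fold higher) and *Adcy8* from 5.23 to 10.7 (2.05-fold higher). Of 37 ABC transporters the multidrug gene *Abcb1b* (47.6 to 8.5, 5.60-fold), the ribosome recycling gene *Abce1* (415 to 74.8, 5.55-fold), *Abca3* (91.2 to 22.3, 4.09-fold), *Abcc3* and *Abcc4* (56.1 to 27.0, 2.08-fold) fell, and *Abcg1* and *Abcc5* (84.1 to 209, 2.48-fold) rose. The other probe of *Abcc5* fell from 202 to 54.3 (3.73-fold lower). Of 59 cytochrome P450 genes 10 rose (16.9%, near the 14.0% of all genes) and 3 fell (5.08%, against 10.9%). The rises were at low levels, as *Cyp4a12b* (4.92 to 39.6, 8.05-fold), *Cyp4a12a* (6.19 to 40.2, 6.50-fold), *Cyp2a4* (2.30 to 12.8, 5.57-fold), *Cyp4a31* (6.57 to 36.5, 5.55-fold) and *Cyp2d9* (1.41 to 5.7, 4.04-fold), whose copies probes may not separate. Of 11 genes at 25 or more on both arrays 0 rose and 2 fell. With no scaling 6 of the list rose and 7 fell. *Cyp2s1* (69.3 to 16.5, 4.20-fold), *Cyp1b1* (82.5 to 32.6, 2.53-fold) and *Cyp3a13* (341 to 161, 2.12-fold) fell. Of 21 conjugating enzyme genes 4 rose, *Sult1c1* (4.92 to 16.3, 3.32-fold), *Sult1c2* (69.3 to 184, 2.66-fold), *Ugt8a* (2.37 to 5.5, 2.32-fold) and *Sult5a1* (7.83 to 17, 2.17-fold). The rises and falls of that list were 1 and 2 with no scaling and 0 and 0 after normexp correction.

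Secreted factors of the immune system rose in part. Of 54 cytokine genes 13 rose (24.1%, against 14.0% of all genes) and 5 fell, with a median log2 ratio of 0.29, or 7 and 8 with no scaling. Rises were led by *Il11* (21.2 to 314, 14.8-fold), *Csf2* (7.43 to 39.2, 5.28-fold), *Il15* (35.4 to 176, 4.96-fold), *Tslp* (2.04 to 9.1, 4.47-fold) and *Il18* (183 to 661, 3.61-fold). The interleukin-1 antagonist *Il1rn* (79.9 to 6.4, 12.5-fold), *Il33*, *Ifng* (7.18 to 2.6, 2.76-fold), *Tnf* (38.5 to 17.7, 2.18-fold) and *Il1a* (98.8 to 47.5, 2.08-fold) fell. The study names *Il11*, *Il15* and *Ccl20* from these arrays. *Il6* was filled on the control array alone at 3.82, at least 2.73-fold lower. Of 26 chemokines *Ccl2*, *Ccl20* (75.5 to 573, 7.58-fold), *Cxcl17* (433 to 1391, 3.21-fold), *Ccl25* (18.9 to 53, 2.80-fold) and *Ccl27a* (21.2 to 58.0, 2.74-fold) rose and the fractalkine gene *Cx3cl1* (54.0 to 22.9, 2.36-fold) fell. In the NF-kB and TNF feedback list 6 of 31 fell, with the TNF receptor *Tnfrsf1a* (56.8 to 10.6, 5.36-fold), *Bcl3* (35.8 to 8.6, 4.16-fold), *Tnfaip3* (252 to 96.0, 2.62-fold), *Ikbke* (33.3 to 13.8, 2.42-fold) and *Tnf* at the head. The feedback genes *Nfkbid* (6.90 to 17.2, 2.49-fold), *Nfkbia* and *Zc3h12a* (16.6 to 33.7, 2.03-fold) rose.

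Of 44 interferon-stimulated genes 9 rose (20.5%, against 14.0% of all genes) and 3 fell. These counts were 5 and 7 with no scaling and 5 and 5 with the median of each length class subtracted. After *Ifit3*, *Ifi44l* rose from 1.25 to 6.5 (5.20-fold higher), *Ifi27* from 100.4 to 417 (4.15-fold higher), *Bst2* from 67.6 to 261 (3.86-fold higher) and *Psmb9* from 2.66 to 9.3 (3.50-fold higher). The RNA-editing gene *Adar* (33.9 to 4.7, 7.21-fold), *Usp18* (29.7 to 11.7, 2.54-fold) and *Herc6* (8.55 to 3.7, 2.31-fold) fell. *Ifit1*, a relative of *Ifit3*, was filled on the serum depletion array alone at 3.2, at least 3.2-fold higher. The interferon-stimulated response element, searched as GAAA repeated after any 2 bases, was in 15 of the 41 promoters of compared genes (36.6%) and in 3.4% of all. Of 15 genes with it 4 rose and 0 fell, and of 18 without it 4 rose and 2 fell. The promoter of *Ifit3*, the gene of the list that rose most, holds 2 copies, shown in capitals.
Ifit3, chr19:34583359-34583578, plus strand: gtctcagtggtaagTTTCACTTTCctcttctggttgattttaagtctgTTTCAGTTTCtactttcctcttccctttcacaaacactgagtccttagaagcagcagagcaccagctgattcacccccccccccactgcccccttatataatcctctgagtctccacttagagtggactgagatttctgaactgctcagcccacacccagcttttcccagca

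Lectins, antimicrobial and acute phase genes rose in 12 of 31 (38.7%, against 14.0% of all genes) and fell in 0, with a median log2 ratio of 0.52 and a median length of 4732 bp. Most were dim, with a median control level of 8.08. Of the 7 at 25 or more on both arrays 1 rose and 0 fell, with a median of 0.24, equal to the 0.24 of all such probes. After *Reg1*, ceruloplasmin, *Cp*, and the endotoxin-binding protein gene *Lbp* (17.6 to 201, 11.4-fold) rose, and *Reg3g* (2.31 to 20.4, 8.82-fold) and *S100a8* (11.6 to 39.5, 3.39-fold) rose at lower levels. Of 26 MHC class I genes *B2m* (912 to 4129, 4.53-fold), *Psmb9*, *Cd1d1* (2.52 to 8.8, 3.49-fold), *Psmb10* (62.2 to 179.8, 2.89-fold) and *Psmb8* (8.90 to 20.4, 2.29-fold) rose and the regulator *Rfx5* (20.2 to 3.3, 6.13-fold) fell. Of 9 class II genes *H2-Ab1* (2.01 to 22.7, 11.3-fold), *H2-DMa* (16.5 to 49.5, 2.99-fold) and *H2-DMb1* (118 to 279, 2.36-fold) rose. Of 12 lymphocyte markers 3 rose, among them the B cell genes *Cd79a* and *Ms4a1*, and 1 fell, and 0 of 16 macrophage markers passed 2-fold. The part of such cells in the class II rises was not tested. Among 29 BCL2 family genes and apoptosis inhibitors 9 fell (31.0%, against 10.9% of all genes) and 2 rose (6.90%, against 14.0%). The inhibitor *Xiap* fell from 25.2 to 4.1 (6.14-fold lower), the survival gene *Bcl2l1* from 222 to 39.7 (5.60-fold lower), *Birc5*, also a mitotic gene, from 199 to 53.6 (3.71-fold lower), with *Apaf1* and *Bcl2l11*. The caspases *Casp4* (2.31 to 16.2, 7.01-fold) and *Casp6* (169.8 to 360.1, 2.12-fold) rose.

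In the transforming growth factor beta list 6 of 40 rose and 6 fell. *Snai2* rose from 3.06 to 13.6 (4.44-fold higher), the inhibitors of differentiation *Id2* from 1524 to 4443 (2.91-fold higher) and *Id3* from 71.4 to 186 (2.61-fold higher), *Pmepa1* from 755 to 1906 (2.52-fold higher) and *Zeb1* from 6.81 to 14.9 (2.19-fold higher). The transducers *Smad3* (31.4 to 4.6, 6.83-fold) and *Smad5* (26.5 to 6.0, 4.41-fold) fell, with *Acvr2a* (44.0 to 15.8, 2.78-fold), *Ltbp1* (20.5 to 9.2, 2.23-fold) and *Skil* (46.8 to 21.4, 2.19-fold). The receptor *Tgfbr1* was filled on the control array alone, at least 9.81-fold lower. Of 29 Notch genes 7 fell and 4 rose, but at 25 or more on both arrays 1 fell and 3 rose. *Numb* (46.6 to 8.8, 5.30-fold), the DNA-binding *Rbpj* (61.9 to 15.4, 4.02-fold), *Lfng* (10.6 to 2.8, 3.79-fold), *Notch1* (20.2 to 6.0, 3.37-fold) and the ligand *Jag1* (39.4 to 15, 2.62-fold) fell. The sheddase *Adam17* (162 to 589.7, 3.64-fold), *Hey2* (1.64 to 4.3, 2.62-fold), *Hes6* (1578 to 3239.5, 2.05-fold) and *Hes5* (41.9 to 85.0, 2.03-fold) rose, but the other probe of *Adam17* fell from 76.2 to 6.7 (11.4-fold lower). Of 41 Wnt genes, *Sp5*, the stem cell receptor *Lgr5* (1.26 to 7.5, 5.94-fold), *Tcf7l1* (3.48 to 16.6, 4.77-fold) and *Dkk1* (26.7 to 63.6, 2.38-fold) rose. The ligands *Wnt7b* (225 to 19.2, 11.7-fold) and *Wnt5a* (11.3 to 3.7, 3.05-fold), the receptors *Lrp6* (108 to 23.1, 4.66-fold) and *Fzd1* (34.5 to 14.3, 2.41-fold) and the beta-catenin gene *Ctnnb1* (3611 to 1593, 2.27-fold) fell.

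General transcription and splicing genes moved both ways. Of 76 TAF, Mediator and RNA polymerase II genes 16 rose and 11 fell. With other settings they were 5 and 18 with no scaling, 12 and 14 at equal 75th percentiles, 5 and 11 after quantile normalization, 4 and 11 after cyclic loess and 7 and 11 with length-class medians subtracted. The rises were led by *Med31* (209.7 to 1036, 4.94-fold), *Med29* (148 to 577, 3.90-fold), *Med10* (239.7 to 893, 3.73-fold), *Supt4b* (362 to 1229.9, 3.40-fold) and *Polr2g* (873 to 2867, 3.28-fold). The falls were led by *Taf4b*, the elongation cyclins *Ccnt1* (68.6 to 11.8, 5.82-fold) and *Ccnt2* (97.4 to 27.4, 3.56-fold), *Supt20* (68.4 to 18.2, 3.76-fold) and *Med12* (15.1 to 4.5, 3.36-fold). Of 109 spliceosome and hnRNP genes 17 rose and 14 fell. Other settings gave 4 and 28 with no scaling, 12 and 17 at equal 75th percentiles, 6 and 16 after quantile normalization, 5 and 17 after cyclic loess, 3 and 10 after normexp correction and 10 and 18 with length-class medians subtracted. *Snrpd2* (832 to 3242, 3.90-fold), *Lsm10* (131 to 399, 3.04-fold), *Sf3b6* (727 to 2088, 2.87-fold), *Snrpa* (175 to 480.1, 2.75-fold) and *Sf3b5* (1618 to 4305, 2.66-fold) rose. The splicing factors *U2af2* (65.7 to 8.8, 7.46-fold), *Rbm47* (309.6 to 44.4, 6.97-fold), *Srsf1* (596 to 103, 5.77-fold), *Hnrnpul2* (114 to 32.7, 3.47-fold) and *Hnrnpm* (728 to 218, 3.34-fold) fell. Of 96 chromatin modifiers 12 fell (12.5%, near the 10.9% of all genes), led by *Setd5* (21.9 to 3.8, 5.76-fold), *Ncoa4* (266 to 55.9, 4.76-fold), *Kmt5b* (30.5 to 7.9, 3.87-fold), *Kdm1b* (37.0 to 10.0, 3.70-fold) and *Kdm4a* (84.4 to 22.9, 3.69-fold). The genes *Chd3* (949 to 3040.2, 3.21-fold), *Smarca2* (24.1 to 73.0, 3.02-fold), *Ncoa3* (12.9 to 31.7, 2.46-fold) and *Brd2* (444 to 917, 2.07-fold) rose, but the other probe of *Ncoa3* fell from 28.9 to 9.0 (3.21-fold lower).

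**Figure D5:**
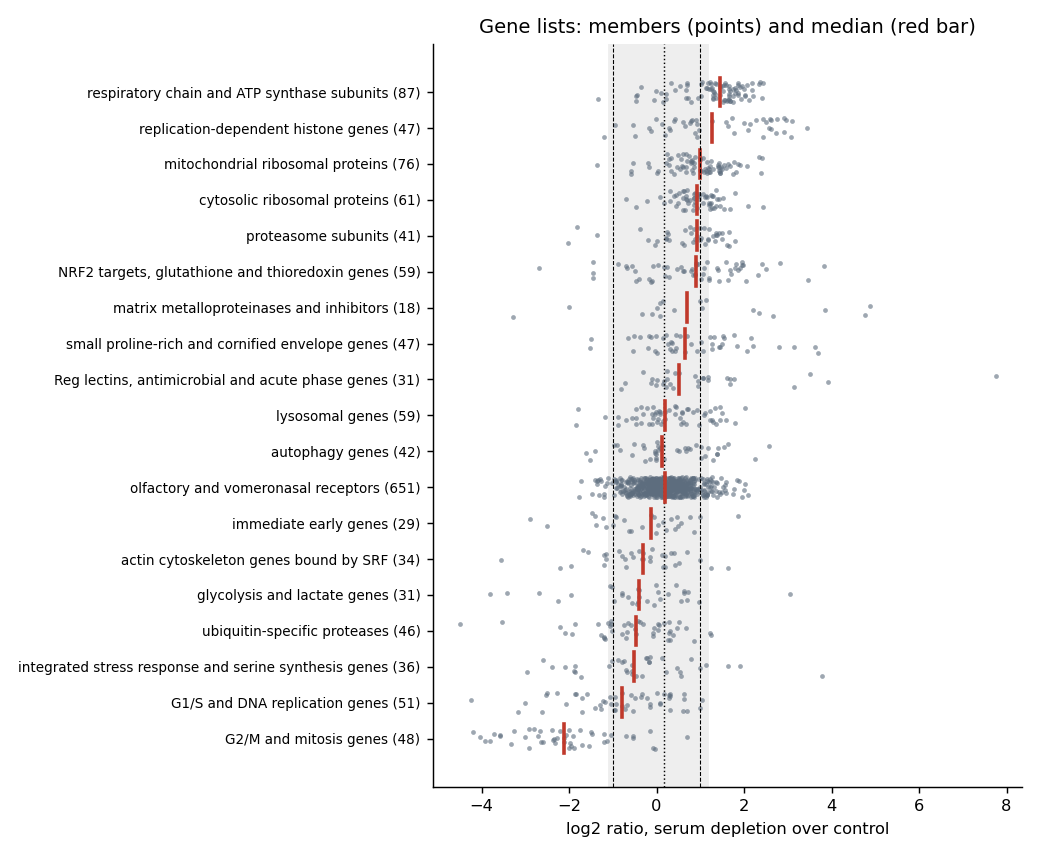
Log2 ratios of serum depletion over control for the members of 19 lists (points, the number compared in brackets), with the median of each list in red, the middle 80% of all compared probes shaded, their median dotted and 2-fold dashed. Respiratory chain genes lie highest, with a median of 1.46, and mitotic genes lowest, with -2.11.

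Some lists served as references. Olfactory and vomeronasal receptor genes, which BECs are not known to use, rose in 52 and fell in 16 of 651 compared, 7.99% and 2.46%, with a median log2 ratio of 0.19. With no scaling 16 rose and 66 fell, and their balance turned with the scaling. Of 16 genes often used as references *B2m*, *Rpl13a* (1139.9 to 2722, 2.39-fold), *Hprt* (2551 to 5855, 2.30-fold) and *Rps18* (10417 to 22993, 2.21-fold) rose and *Ywhaz* and *Tfrc* fell. Rises and falls numbered 1 and 5 with no scaling, 1 and 5 after quantile normalization, 1 and 5 after cyclic loess, 1 and 5 after normexp correction and 2 and 3 with length-class medians subtracted. *Rps18* had a log2 ratio of -0.03 after cyclic loess.

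Levels on the GCDC array are set beside some of the leading genes without comparison, since both treatments share the control array. *Reg1* was at 10.0 there, *Mmp12* at 4.8, *Mmp13* at 3.7, *Mup19* at 5.3, *Fxyd2* at 33.6 and *Ttr* at 50.4, and their control levels are given above. *Reg3b*, empty on the control array, was at 1.4 on the GCDC array. *Ifit3* was at 87.1, *Tceal8* at 879, *Gstm5* at 954, *Nupr1* at 8648 and *Sprr2b* at 2269. Of the genes that fell, *Fkbp5* was at 18.9, *Hmgcs1* at 131 by its brighter probe, *Pkm* at 781, *Hmmr* at 48.3 and *Mcm5* at 13.0.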

How the data were processed

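RNA of 1 control array, 1 serum depletion array and 1 GCDC array was amplified, labelled with Cy5 and hybridised to 3D-Gene 24k chips. The deposited table holds intensity values from which the authors had subtracted the mean of the blank spots, with probes under 2 SD of the blanks left empty, and in which each array has a median of 25. The scanner output, also deposited as intensity with no background subtracted, gave the same filled probes and served for the alternatives. Groups came from the sample labels. Log2 ratios, counts and bounds were computed in Python 3.11.15 with numpy 2.4.6 and pandas 2.3.3, figures with matplotlib 3.10.9, and other normalizations with limma 3.58.1 in R 4.3.3, and the steps were tested on simulated data. The simulation changed a small part of the probes, all at control levels above 25, with as many rises as falls. It therefore does not test the choice of scaling or the ratios of dim probes. Symbols came from the platform's annotation, updated through the gene identifier for 20556 of 20690 probes with 1 symbol, and 2783 probes had none. In lists a gene with several probes was represented by the brightest. Gene lengths are spans on the genome in RefSeq.

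The genes named are the 15 highest and 15 lowest ratios over all probes and over those at 25 or more on both arrays, the 10 highest levels filled on 1 array alone, the 5 members past 2-fold with the largest change in each direction of each list, some genes with 3 or more probes, and defining cell type markers. *Mki67*, *Ezh2*, *Hif1a*, *Slc16a1*, *Timp1*, *Timp3*, *Mmp1b*, *Ctsd*, *Cdkn1a* and *Cdkn2a* were added after their values were seen. The members and lists were chosen with earlier results of these data known. No p-value was computed because each condition has 1 array. The alternatives were levels rebuilt from the scanner output, limits of 5 SD and none, a minimum level of 25, 6 other scalings, log2 of level plus 5, thresholds of 1.5-fold and 4-fold and, chosen after seeing the data, the median ratio of each of 10 gene length classes subtracted. A second microarray of the study is not analysed here.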

Additional observations from a re-analysis of the deposited data

Results flagged for a closer look

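Spots that carry no probe gave signal on the serum depletion array: 39.0% of 1102 such spots lay more than 2 SD above the blanks and 6.08% more than 5 SD, against 22.5% and 1.09% on the control array. They were singled out because they are outside the compared probes and exceed the control array. The 96 negative controls did not share the order, at 29.2% above 2 SD after serum depletion and 40.6% in control. Blank spots were alike, at 7.31% and 7.46% above 2 SD. The cause was not tested.

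Both kinds of positive control spot, likewise outside the compared probes, were brighter on the serum depletion array after scaling. Their median log2 ratios were 0.22 (SD 0.19 over 24 spots) and 0.86 (SD 0.17 over 24 spots), so that they differed from each other by more than the spread of the spots, and the median of all compared probes was 0.16. How these spots were made up is not given in the sources used here, and their part in the scaling was not tested.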

How the results depend on the processing

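No paired analysis was possible because each condition has 1 array. The main results were 2674 rises, 2190 falls, rises as 55.0% of changes and a median log2 ratio of 0.16. At 25 or more on both arrays these were 1625, 748, 68.5% and 0.24, and with no scaling 1170, 3912, 23% and -0.28. With the median over probes filled on both arrays the share was 66.5% and the median 0.32, at equal 75th percentiles 44.6% and 0.022, and after quantile normalization 45.0% and 0.10. Cyclic loess gave 1702 rises, 39.4% and 0.019, and normexp correction with quantile normalization 577 rises, 803 falls, 41.8% and 0.011. With length-class medians subtracted, chosen after seeing the data, 1750 probes rose, the share was 42.5% and the median 0. The median was 0.18 at a limit of 5 SD and 0.10 on log2 of level plus 5. At 1.5-fold 5462 rose and 3737 fell (59.4%), and at 4-fold 388 and 636 (37.9%). Of the mitotic genes 9 fell at 25 or more on both arrays and 20 after normexp correction. Mitochondrial ribosomal rises numbered 17 with no scaling, 18 after quantile normalization, 15 after cyclic loess and 13 after normexp correction, and respiratory chain rises 28, 26 and 20 in the last 3 of these. Of 512 named probes past 2-fold the direction was reversed for *Rps18* alone, at -0.032 after cyclic loess, while 267 were no longer past 2-fold after normexp correction, 78 with no scaling, 79 on log2 of level plus 5, 60 after cyclic loess and 53 after quantile normalization. The cause of these changes was not tested. Signal over background limits low genes, since 569 probes rose from a control level under 5 and 500 fell to a serum depletion level under 5.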
